A study of Homo sapiens with 18 samples.

Results

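Loss of WAPL and loss of SCC4 were combined in 1 cell line in a 2 by 2 design, which asks for each gene whether its level in the double mutant follows from the single losses. The 12 samples of the design, out of 18 in the series, were 3 controls, 3 ΔWAPL, 3 ΔSCC4 and 3 ΔWAPL/ΔSCC4 samples, all chosen by their labels. For each gene the interaction is the change that SCC4 loss brings in ΔWAPL cells minus the change that it brings in control cells, on the log2 scale. An interaction of 0 means that the double mutant shows the sum of both single changes. An interaction above 0 means that it lies higher than that sum, and below 0 lower.

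All samples were HAP1 cells, a near-haploid human line derived from the leukaemia line KBM-7, with impaired p53 function. The control cells were unedited HAP1 (set A of the labels). ΔWAPL cells were clone 3.3, with a Blasticidine cassette inserted at WAPL, and ΔSCC4 cells were a clone with a Puromycin cassette inserted at SCC4. ΔWAPL/ΔSCC4 cells were made by knocking out SCC4 in ΔWAPL cells, and their label carries the number 3.3. Each mutant genotype was represented by 1 line under 1 label, with 3 samples, so that the effect of a genotype and that of its line cannot be told apart within these 12 samples. Whether the double mutant was taken from a single cell is not given in the sources used here. The other 6 samples of the series, 3 controls of set B and 3 ΔWAPL samples of clone 1.14, entered no interaction and were used as separate samples. The label of the mutants does not name a set; the controls titled A were taken as theirs.

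Total counts on genes ranged from 10007646 to 20711127 in the 12 samples, with the lowest in ΔSCC4 replicate 2. The levels of BCR and ABL1, whose fusion marks the line of origin, ranged from 25.6 to 49.5 CPM and from 7.56 to 42.2 CPM (CPM, counts scaled to the size of each library by the TMM method). VIM (236 to 658 CPM), KRT18 (47.9 to 80.8 CPM) and TAL1 were expressed. Markers of blood cells, epithelia and fibroblasts were mixed. The hematopoietic genes PTPRC, CD34, SPI1 and GATA1 were at 0.122 CPM or less and CD33 at 0.484 CPM or less, while RUNX1 was at 3.75 to 14.9 CPM. Of the epithelial genes CDH1 was at 0.131 CPM or less, EPCAM at 0.277 to 1.77 CPM and KRT8 at 1.8 to 51.6 CPM. Of the fibroblast collagens COL1A2 and COL3A1 were at 0.357 CPM or less and COL1A1 at 10.8 to 32 CPM. The libraries also differed in how counts followed the GC content of genes. Spearman's rho between GC content and a library's deviation from the mean of its genotype ranged from -0.703 to 0.776. Each genotype held replicates of both signs, which deviations from their own mean all but force. This measure does not show whether the genotypes were balanced in GC content.

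Cohesin is a ring of SMC1A, SMC3, RAD21 and a STAG subunit that holds DNA together and enlarges chromatin loops. SCC2 and SCC4, encoded by NIPBL and MAU2, load it onto DNA. WAPL releases it. In cells without WAPL cohesin stays on chromatin for longer, and in cells without SCC4 less of it is loaded, so that the losses act on opposite ends of the same cycle. Loops bring distant enhancers and promoters together, and genes with restricted expression in development are known to be read through such contacts.

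The guides that made the mutants are shown because each mutant is defined by its cut. The guide is in capitals and the flanking bases of GRCh37 are in lower case, read on the strand of the guide.
WAPL guide: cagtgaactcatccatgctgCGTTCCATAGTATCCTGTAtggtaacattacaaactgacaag
SCC4 guide: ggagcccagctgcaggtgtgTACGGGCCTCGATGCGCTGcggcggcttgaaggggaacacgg
The WAPL guide matches chr10:88259864-88259882 on the plus strand, in exon 3 of the 19 exons of WAPL, which is transcribed from the minus strand, within the codon of residue 374 of 1190. The SCC4 guide matches chr19:19431849-19431867 on the minus strand, in exon 1 of the 19 exons of MAU2, which is transcribed from the plus strand, at residue 62 of 613. Each guide had 1 exact match in the genome.

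The edited genes checked the labels. MAU2 (ENSG00000129933, chr19:19431638-19469563) was at 73.1, 62.4 and 61.1 CPM in controls and 58.1, 51.0 and 57.6 CPM in ΔWAPL. It was at 0.97, 0.499 and 0.622 CPM in ΔSCC4 and 0.911, 1.04 and 0.847 CPM in ΔWAPL/ΔSCC4. WAPL (ENSG00000062650, chr10:88195013-88281549) averaged 99.1 ± 21.2 CPM (SD, n = 3 here and below) in controls and 84.5 ± 16.3 in ΔSCC4, against 43.2 ± 5.22 in ΔWAPL and 45.4 ± 3.84 in the double mutant. Each edited gene therefore separated the samples in which it was edited from the others without overlap, and neither had a called interaction (WAPL 0.30, standard error 0.24, adjusted p = 0.475; MAU2 0.60, standard error 0.30, adjusted p = 0.273; edgeR). NIPBL was between 85.9 and 151 CPM in all 12 samples, with an interaction of -0.18 (adjusted p = 0.703). None of 7 core subunits of cohesin and none of 14 loading, release and acetylation factors tested had a called interaction, in lists too short to set against the 11.3% of all genes.

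The double mutant departed from the sum of the single mutants at 1453 of 12817 genes tested (11.3%; edgeR's quasi-likelihood test, Benjamini-Hochberg adjusted p under 0.05). The interaction was above 0 at 750 genes (5.85% of those tested) and below 0 at 703 (5.48%). At an unadjusted p under 0.05 there were 3193 genes. The size of the interaction was at least 2-fold at 912 of the called genes, with a median of 1.25 on the log2 scale, against quartiles of -0.251 and 0.285 over all genes. The last gene inside the threshold was ANKRD27 (0.60, adjusted p = 0.0496) and the first outside was ERGIC3 (-0.69, adjusted p = 0.0503). Relative to the same controls 1361 genes were called in ΔWAPL (10.6%), 1841 in ΔSCC4 (14.4%) and 1120 in ΔWAPL/ΔSCC4 (8.74%). Of the interaction genes, 955 were called in each of the 12 fits that left out 1 sample. When GC content was corrected per library the interaction was called at 3219 genes, 1405 of them among the 1453.

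The called genes were described by how the 3 mutants stood to control, with a change of 2-fold as the limit. At 736 genes no mutant reached 2-fold. This count was 450 without ΔWAPL replicate 2, 477 without ΔSCC4 replicate 2, 480 without control replicate 2, 485 without double mutant replicate 1 and 2390 with the GC correction. The largest of the other classes, with 397 genes, was named suppressed: at least 1 single mutant changed by 2-fold or more, and the double mutant kept under 50% of the larger change on the log2 scale. At 112 genes, named saturated, both single mutants moved the same way and the double mutant moved no further than 2 times the smaller single change. At 65 genes, named synergistic, the double mutant changed by 2-fold or more and each single mutant by under 50% of that. The remaining 143, which fell into none of these classes, were named intermediate. The name does not mean that the double mutant lay between the single mutants. Classes are descriptions of called genes and carry no test of their own. In these bulk samples fewer cells that express a gene and less RNA per cell cannot be told apart.

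**Figure D1:**
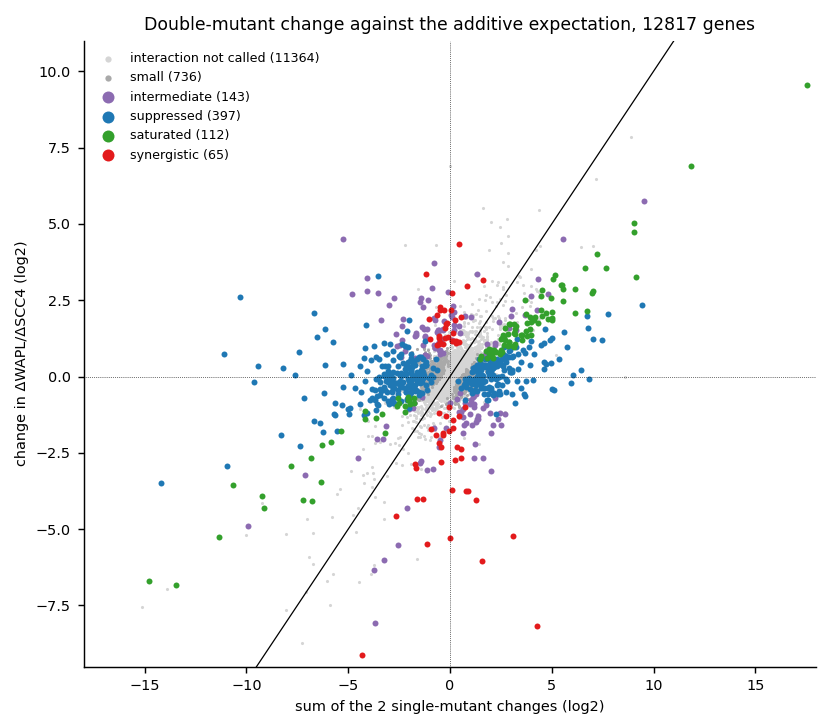
Each point is a gene: the horizontal axis gives the sum of its log2 changes in ΔWAPL and ΔSCC4 and the vertical axis its log2 change in ΔWAPL/ΔSCC4, all relative to the controls of set A, with the diagonal where both are equal. Most suppressed genes (397 in all) lie closer to the horizontal line at 0 than to the diagonal, saturated genes (112) between it and the diagonal, and most synergistic genes (65 in all) closer to the vertical than to the horizontal line at 0.

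The suppressed genes fell into groups by which single mutant had moved. At 194 genes ΔSCC4 alone reached 2-fold, at 88 ΔWAPL alone, at 104 both in the same direction, and at 11 both in opposite directions.

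Of the 194 genes moved in ΔSCC4 alone, 106 were lower there, with a median change of -1.69 in ΔSCC4, -0.36 in ΔWAPL and 0.03 in the double mutant. Several were lost to the floor of the counts. S100A6, a calcium-binding protein, was at 31.1, 29.5 and 22.4 CPM in controls, 27.6, 28.3 and 36.2 CPM in ΔWAPL and 36.0, 29.0 and 34.5 CPM in ΔWAPL/ΔSCC4. In ΔSCC4 it was at 0.0647, 0.2 and 0 CPM, 3 reads in all against 1720 in the double mutant. No ΔSCC4 sample came near those of the other genotypes, which overlapped, and the ratio of double mutant to ΔSCC4 was 444 (95% counting interval 152 to 2150).

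GABRA5 (ENSG00000186297, chr15:27112058-27194355), a subunit of the GABA-A receptor, was at 17.9, 18.9 and 16.8 CPM in controls, 12.8, 11.9 and 12 CPM in ΔWAPL and 15.2, 16.8 and 15.4 CPM in the double mutant. It had 1 read over the 3 ΔSCC4 samples, and its interaction was 9.45 (95% interval 7.23 to 11.66, adjusted p = 1.25e-09, edgeR). MT1M (ENSG00000205364, chr16:56666571-56667893), a metallothionein that binds zinc, had no read in ΔSCC4 and 3.75 to 7.46 CPM in controls and double mutant. Taking 3 reads over the group as the most that a count of 0 allows, it was at least 80.2-fold higher in the double mutant than in ΔSCC4. Its neighbours MT2A and MT1E also had called interactions above 0, and reads of these similar genes may be shared.

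TAL1, a transcription factor of blood stem cells, was at 79.6, 71.2 and 68.0 CPM in controls, 78.9, 67.9 and 68.8 CPM in ΔWAPL, 4.66, 4.59 and 3.8 CPM in ΔSCC4 and 83.3, 80 and 83.9 CPM in the double mutant. Its interaction was 4.26 (standard error 0.17, adjusted p = 1.53e-09). WNT5A, a ligand of the WNT family, stood at 0.711 to 1.31 CPM in ΔSCC4 and at 12.7 to 30.8 CPM in the other 9 samples. SLC17A9, a transporter that loads nucleotides into vesicles, was at 0.133 ± 0.0653 CPM in ΔSCC4 against 16.4 ± 0.798 in controls and 21.2 ± 2.1 in the double mutant. MME, the membrane protease neprilysin, and SOCS2, an inhibitor of cytokine signalling, fell to 5.67 ± 0.273 and 10.5 ± 1.92 CPM in ΔSCC4 and were at 37.1 ± 3.69 and 69.4 ± 2.78 CPM in the double mutant. At each of these genes the ΔSCC4 samples lay apart from all others.

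At the other 88 genes ΔSCC4 was higher, with a median change of 1.46 there and 0.06 in the double mutant. EPHA5 (ENSG00000145242, chr4:66185281-66536213), an ephrin receptor, was at 18, 23.0 and 16.9 CPM in ΔSCC4. The highest of the other 9 samples had 1.86 CPM. The interaction was -5.40 (standard error 0.44, adjusted p = 6.68e-07, edgeR). The histone genes H1-2, H2BC4 and H2AC6, next to each other among the genes tested on chromosome 6, followed this pattern, with H2AC6 at 25.8 ± 1.01 CPM in ΔSCC4 and 7.95 ± 0.918 in the double mutant. Histone genes of 1 family are alike in sequence and their reads may be shared.

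The 88 genes moved in ΔWAPL alone were lower there at 51 genes and higher at 37, with median changes in the double mutant of -0.09 and 0.34. SLC12A3, a sodium chloride cotransporter, was at 0.391, 0.555 and 0.470 CPM in ΔWAPL and at 5.67 CPM or more in every other sample. PCDH17, a protocadherin, was at 23.4, 28.9 and 22.5 CPM in ΔWAPL, and the other genotypes lay between 2.93 and 5.81 CPM. LRRC7 had 17.5 to 21.4 CPM in ΔWAPL and at most 2.61 CPM elsewhere. The double mutant overlapped the controls at LRRC7, lay just below them at PCDH17 (2.93 to 3.13 CPM against 3.14 to 5.05) and above them at SLC12A3 (9.6 to 10.2 CPM against 6.2 to 8.25).

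At 104 genes both single mutants had moved the same way by 2-fold or more, 51 down and 53 up. Their changes thus added to a larger sum, of which the double mutant showed little. The median of the 51 lower genes was -1.66 in ΔWAPL, -2.29 in ΔSCC4 and -0.44 in the double mutant. That of the 53 higher genes was 1.80, 1.80 and 0.38. PCDH9, a protocadherin, was at 9.10, 9.09 and 12.5 CPM in controls, 49.3, 44.9 and 39.8 CPM in ΔWAPL, 50, 58.1 and 65.0 CPM in ΔSCC4 and 12.4, 12.7 and 11.6 CPM in the double mutant. The single mutants stood apart from controls and double mutant, which overlapped (interaction -4.36, standard error 0.21, adjusted p = 7.41e-09, edgeR).

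ETV1, a transcription factor of the ETS family, was at 1.90 to 2.79 CPM in controls, 9.77 to 10.9 CPM in ΔWAPL, 13.8 to 19.4 CPM in ΔSCC4 and 2.88 to 3.73 CPM in the double mutant. VEGFC, a growth factor of lymphatic vessels, averaged 1.05 CPM in controls and 0.983 CPM in the double mutant, against 6.36 and 2.96 CPM in ΔWAPL and ΔSCC4. PDGFRA, a growth factor receptor, averaged 12.3 and 13.7 CPM in controls and double mutant and 37.9 and 33 CPM in the single mutants. PROM1, the surface protein CD133, went past the controls: it averaged 15.7 and 22.2 CPM in the single mutants, 6.22 CPM in controls and 3.42 CPM in the double mutant. PROM1 was higher in control B, 13.7 CPM on average (adjusted p = 0.0129, edgeR).

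TLL1 (ENSG00000038295, chr4:166794389-167025609), a metalloprotease of the tolloid family, and KIF26B (ENSG00000162849, chr1:245318287-245872734), a kinesin, rose in both single mutants, more in ΔWAPL. TLL1 was at 13.4, 14.1 and 10.1 CPM in ΔWAPL, 2.52, 2.89 and 3.18 CPM in ΔSCC4, and 1.08, 1.35 and 1.24 CPM in the double mutant, with 0.524, 0.553 and 0.475 CPM in controls. At TLL1 the double mutant stayed above control (log2 change 1.23, adjusted p = 0.0096, edgeR) and below both single mutants. At KIF26B it overlapped ΔSCC4, with averages of 0.309, 7.85, 1.33 and 1.24 CPM in control, ΔWAPL, ΔSCC4 and double mutant. The interactions were -5.80 (standard error 0.34) for TLL1 and -4.75 (standard error 0.36) for KIF26B.

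Among the 51 genes lower in both single mutants SPARC, a matrix protein, was at 63.5, 55.7 and 48.5 CPM in controls, 8.11, 8.04 and 7.05 CPM in ΔWAPL, 13.9, 11.6 and 11.5 CPM in ΔSCC4 and 26.8, 24.6 and 28.0 CPM in the double mutant. The 4 genotypes did not overlap (interaction 3.95, standard error 0.19, adjusted p = 7.11e-09, edgeR). HCLS1, a cortactin-like protein of blood cells, fell from 5.30 ± 0.34 CPM to 1.07 ± 0.225 in ΔWAPL and 0.144 ± 0.0474 in ΔSCC4, and was at 9.24 ± 0.51 in the double mutant. CD44, a receptor for hyaluronan, was at 2.95 to 4.10 CPM in controls, 1.18 to 1.51 CPM in ΔWAPL, under 0.2 CPM in ΔSCC4 and 13.3 to 14.4 CPM in the double mutant. At HCLS1 and CD44 every double mutant sample lay above every control.

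NLRP2 (ENSG00000022556, chr19:55464498-55512510), a member of the NOD-like receptor family, had no read in the 3 ΔWAPL samples and 0.776, 0.798 and 0.415 CPM in ΔSCC4. It stood at 3.21, 2.09 and 2.44 CPM in controls and 16.1, 14.3 and 17.0 CPM in the double mutant. The double mutant was at least 263-fold higher than ΔWAPL, and the interaction was at least 10.02 with 3 reads as the limit of a count of 0. NLRP2 differed between the control groups, with 12.1 CPM on average in control B (log2 2.22 higher, adjusted p = 0.00183, edgeR), so that the double mutant stood near control B and above control A.

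At 11 genes the single mutants had moved in opposite ways. NCAM2 (ENSG00000154654, chr21:22370727-22915650), a neural adhesion molecule, rose to 16.8, 14.5 and 12.2 CPM in ΔWAPL and was at 0.194, 0.0998 and 0.0692 CPM in ΔSCC4. The double mutant had 0.569, 0.306 and 0.395 CPM, which overlapped the controls (0.393, 0.798 and 0.594 CPM). Its interaction of -2.88 (standard error 0.70, adjusted p = 0.0367, edgeR) was called in 6 of the 12 fits without 1 sample. Its adjusted p was 0.316 without ΔSCC4 replicate 1. FZD10, a WNT receptor, had no read in ΔSCC4 and 8.13 to 10.5 CPM in both ΔWAPL and the double mutant, against 0.713 to 1.23 CPM in controls. With 3 reads as the limit of the count of 0 its interaction was at least 3.59, and its place among suppressed genes rests on a fitted change in ΔSCC4.

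**Figure D2:**
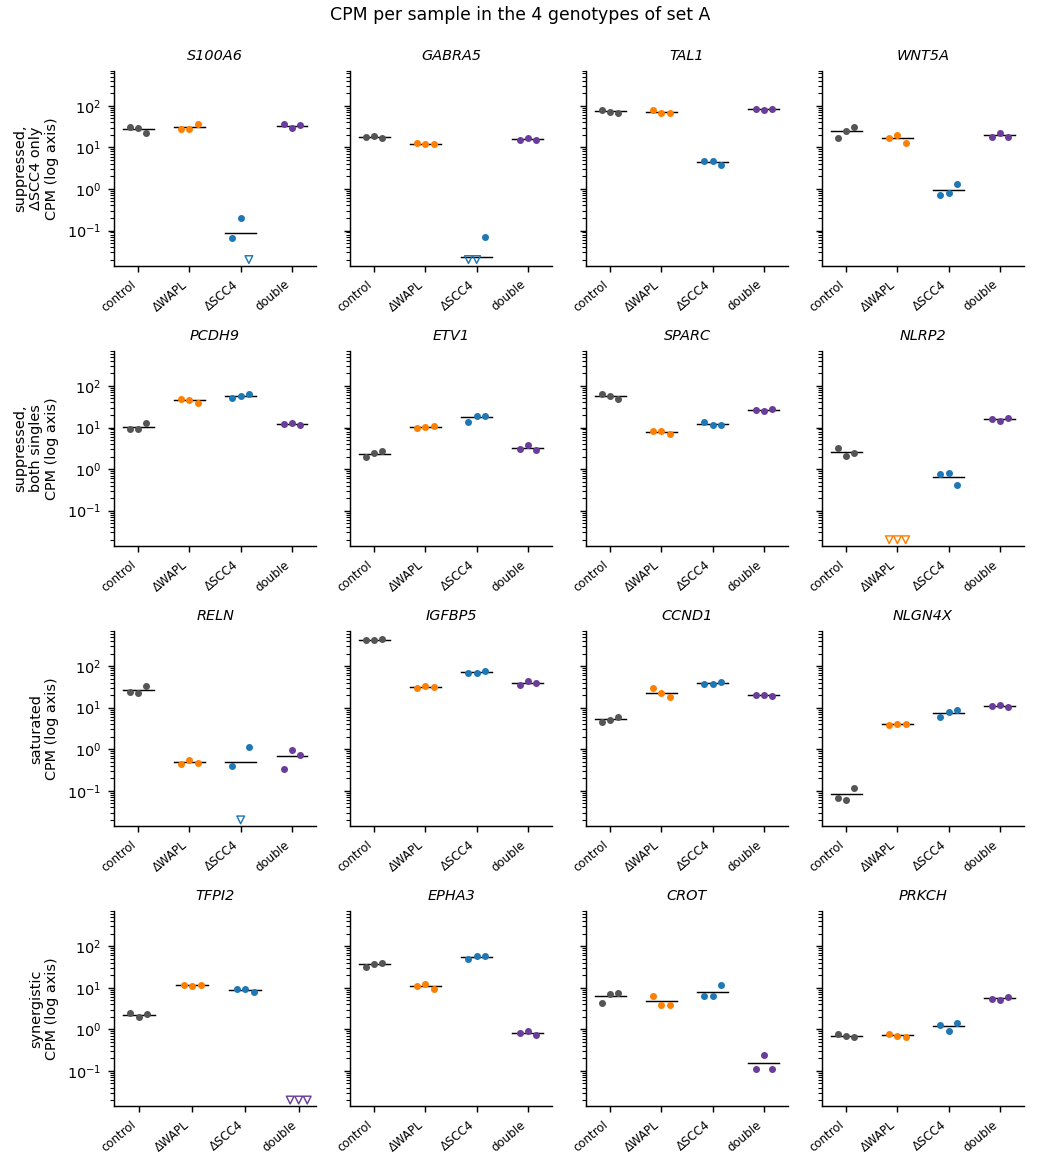
CPM of 16 genes on a log axis in the 3 samples of each genotype of set A, with a line at the mean; open triangles mark samples with no read, drawn at the bottom of the axis. S100A6 is low in ΔSCC4 (mean 0.0881 CPM) and at 33.2 CPM in the double mutant, PCDH9 returns to 12.2 CPM from 44.7 and 57.7 CPM, RELN is at 0.685 CPM in the double mutant as in both single mutants, and EPHA3 is at 0.816 CPM in the double mutant.

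The controls of set B and ΔWAPL clone 1.14 gave the same genes in samples that no class had used. Of the genes tested in both sets 1077 of 12539 were higher in clone 1.14 than in control B (8.59%) and 1404 lower (11.2%). Genes moved in ΔWAPL clone 3.3 alone were called in the same direction in clone 1.14 at 73 of 85 (85.9%), and in the opposite direction at 1. Of the genes moved the same way in both single mutants 82 of 89 were called in the same direction (92.1%). Of the 10 tested genes that the single mutants had moved in opposite ways, 5 were called in the direction of the larger single change and 5 in the other. PCDH9 was at 43.2 CPM in clone 1.14 against 9.35 CPM in control B, and SPARC at 1.53 against 34.2 CPM. The WAPL side of these interactions was thus also measured in another clone. No second ΔSCC4 clone or double mutant is among the 18 samples.

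Genes lower in ΔSCC4 alone showed a further pattern in clone 1.14. They had been chosen for a change of under 2-fold in clone 3.3, whereas a call in clone 1.14 had no size limit. In clone 1.14, 67 of 103 were called lower (65.0%, against 11.2% of all genes) and 5 higher. Their median log2 change was -0.73 in clone 1.14 and -0.36 in clone 3.3. A smaller fall could also be called in clone 3.3, as at EGLN3 (log2 change -0.97, adjusted p = 3.21e-05, edgeR). S100A6 had no read in the 3 clone 1.14 samples and 22.3, 24.5 and 21.2 CPM in control B. TAL1 was at 2.39, 2.91 and 2.84 CPM in clone 1.14 and at 54.0, 56.8 and 52.3 CPM in control B. GABRA5 averaged 0.231 CPM against 16 CPM. The genes higher in ΔSCC4 alone were called higher in clone 1.14 at 23 of 82 (28.0%, against 8.59% of all genes). At S100A6, TAL1 and GABRA5 ΔWAPL clone 1.14 was thus low, like ΔSCC4. At S100A6 clone 3.3 and the double mutant overlapped the controls, and neither was called at S100A6 or TAL1. At GABRA5 clone 3.3 was slightly lower than control (log2 change -0.54, adjusted p = 0.0129, edgeR). The difference between the 2 ΔWAPL clones was not tested.

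BMP7, a growth factor of the TGF-β family, shows the same split at a gene that clone 3.3 moved. It was at 16, 12.4 and 11.9 CPM in control A, 66.4, 67.0 and 76.0 CPM in clone 3.3, 1.03, 0.798 and 0.899 CPM in ΔSCC4 and 78, 66.2 and 73.4 CPM in the double mutant. In set B it averaged 13.1 CPM in controls and 0.615 CPM in clone 1.14. The controls of both sets were alike at BMP7, while the ΔWAPL clones lay on opposite sides of them. Over the 12450 genes tested in both control groups, 70 differed (0.562%), among them CD44 (9.66 CPM in control B, 3.33 in control A) and 17 of 359 suppressed genes tested.

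**Figure D3:**
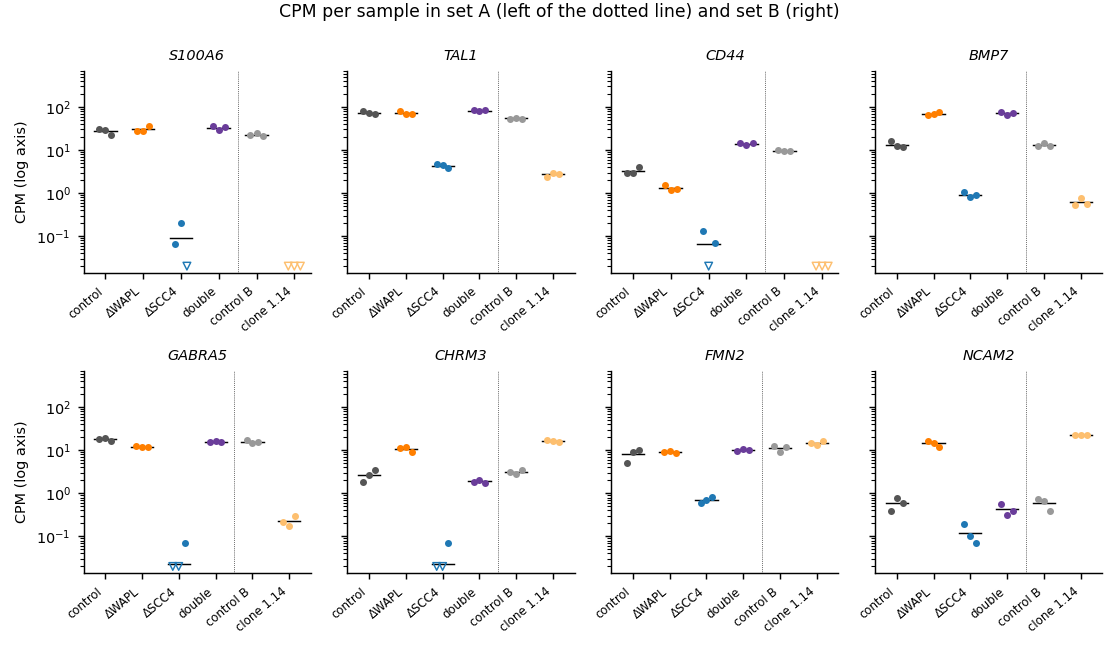
CPM of 8 genes on a log axis in the 3 samples of each genotype of set A and, right of the dotted line, in control B and ΔWAPL clone 1.14; lines mark means and open triangles samples with no read. S100A6, TAL1, CD44, BMP7 and GABRA5 are low in ΔSCC4 and clone 1.14, whereas CHRM3 and FMN2 are low in ΔSCC4 and not in clone 1.14, and NCAM2 is high in both ΔWAPL clones.

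**Figure D4:**
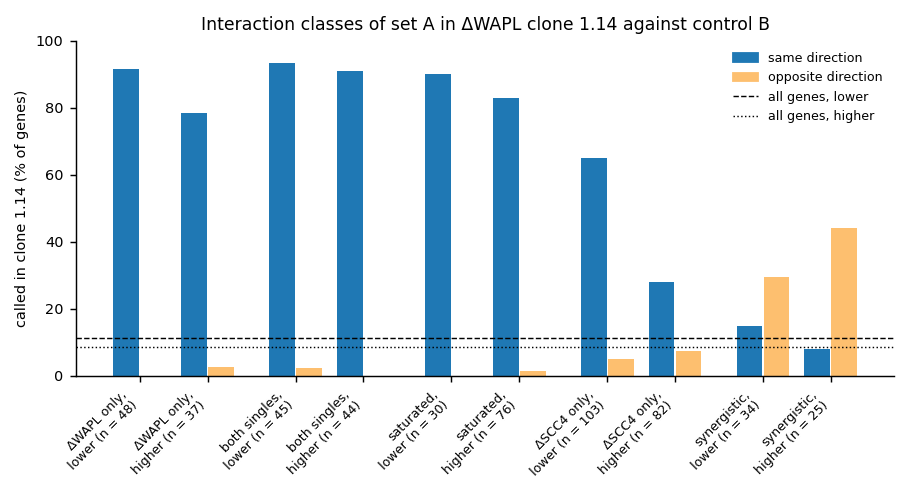
Bars give the percent of genes of each class and direction in set A that were called in clone 1.14 against control B in the same (blue) or opposite (orange) direction; n is the number tested, and the lines give all genes called lower (11.2%) and higher (8.59%). Genes moved in opposite ways by the single mutants, intermediate genes and genes at which no mutant reached 2-fold are not drawn. Genes moved in clone 3.3 alone, the same way in both single mutants or saturated are called in the same direction at 78.4% or more, and synergistic genes at 14.7% or less.

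At the 112 saturated genes both single mutants and the double mutant lay on the same side of control, with 82 genes higher and 30 lower. The median changes of the higher genes were 1.83 in ΔWAPL, 1.78 in ΔSCC4 and 1.62 in the double mutant. Those of the lower genes were -2.18, -2.27 and -1.58. RELN (ENSG00000189056, chr7:103111828-103630105), the secreted guidance protein reelin, was at 23.8, 23.1 and 32.3 CPM in controls, 0.440, 0.555 and 0.470 CPM in ΔWAPL, 0.388, 0 and 1.11 CPM in ΔSCC4 and 0.342, 0.978 and 0.734 CPM in the double mutant. The mutants overlapped each other and lay far below control. Counts cannot fall below 0, so where each loss alone brings a gene near the floor a sum of both falls could not have been seen.

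The floor bears less on saturated genes that kept many reads in every genotype. IGFBP5, a binding protein of insulin-like growth factors, was at 433, 419 and 438 CPM in controls, 30.0, 33.8 and 31.3 CPM in ΔWAPL, 69.5, 68.9 and 76.7 CPM in ΔSCC4 and 35.4, 42.9 and 38.7 CPM in the double mutant. Its level in control B was lower than in control A, 195 CPM on average (log2 change -1.15, adjusted p = 0.00183, edgeR). CCND1, cyclin D1 of the G1 phase, rose from 4.58, 5.16 and 6.12 CPM to 28.9, 22.3 and 17.9 CPM in ΔWAPL and 36.5, 37.9 and 41.6 CPM in ΔSCC4, and was at 20, 20.1 and 19.6 CPM in the double mutant. ANXA1, a phospholipid-binding protein, rose from 31.8 ± 1.21 CPM to 357 ± 30.2, 200 ± 33.5 and 231 ± 5.24 in the 3 mutants. Each of the 3 mutants stood apart from control at these genes.

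NLGN4X (ENSG00000146938, chrX:5758678-6146908), a synaptic adhesion protein, had at most 0.119 CPM in a control and 3.91 to 11.5 CPM in the mutants. TAFA5 (ENSG00000219438, chr22:48885365-49246724), a secreted protein, averaged 2.67, 14.6, 34.5 and 11.2 CPM in control, ΔWAPL, ΔSCC4 and double mutant. HBB (ENSG00000244734, chr11:5246694-5250625), the β chain of adult haemoglobin, had no read in controls. It was at 1.21 to 1.87 CPM in ΔWAPL, 7.42 ± 1.34 in ΔSCC4 and 5.93 ± 1.31 in the double mutant, at least 25.6-fold, 119-fold and 95.6-fold higher than control. Its globin relatives share sequence with it.

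TCEAL9 (ENSG00000185222, chrX:102611417-102613390) was at 18.5 ± 0.804 CPM in controls and 0.540 CPM or less on average in each mutant. MYO5C (ENSG00000128833, chr15:52484519-52588001), a myosin motor, was at 7.92, 13.4 and 17.6 CPM in controls and at most 1.14 CPM in any mutant sample. Few reads were left in the mutants at TCEAL9 and MYO5C, so that the floor bears on both as on RELN. Of the saturated genes 90 of 106 were called in the same direction in clone 1.14 (84.9%). RELN was (log2 change -4.02, adjusted p = 5.5e-06), and MYO5C was not (0.12, adjusted p = 0.387).

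At the 65 synergistic genes the double mutant moved and neither single mutant did so to 50% of its extent, 31 genes up and 34 down. TFPI2 (ENSG00000105825, chr7:93514708-93520065), an inhibitor of serine proteases, was at 2.49, 1.97 and 2.38 CPM in controls, 12, 11 and 11.5 CPM in ΔWAPL and 9.12, 9.28 and 8.02 CPM in ΔSCC4. The 3 double mutant samples had no read. Both single mutants were higher than control at this gene and the double mutant was at least 39.1-fold lower than control, with an interaction of at most -9.58. In clone 1.14 TFPI2 was not called (3.56 CPM on average against 3.9 CPM in control B, log2 change -0.15, adjusted p = 0.584, edgeR).

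EPHA6 (ENSG00000080224, chr3:96533425-97480376), an ephrin receptor, was at 0.171, 0.0611 and 0.226 CPM in the double mutant and at 2.21 to 4.70 CPM in the other 9 samples. Its relative EPHA3 was at 31.4, 38 and 39.8 CPM in controls, 10.8, 12.5 and 9.33 CPM in ΔWAPL, 48.0, 58.9 and 57.9 CPM in ΔSCC4 and 0.797, 0.917 and 0.734 CPM in the double mutant. The genotypes did not overlap at EPHA3, and ΔWAPL and ΔSCC4 lay on opposite sides of control (interaction -4.32, standard error 0.26, adjusted p = 2.33e-08, edgeR). CROT (ENSG00000005469, chr7:86974980-87029110), an acyltransferase of peroxisomal fatty acid oxidation, was at 0.157 ± 0.0758 CPM in the double mutant and at 3.81 to 11.4 CPM in the other samples. CNRIP1, which binds the cannabinoid receptor CB1, MAP2, a microtubule-associated protein of neurons, and CDK14, a cyclin-dependent kinase, were at 0.467, 2.77 and 3.37 CPM in the double mutant and at 4.12 to 26.6 CPM on average in the other genotypes.

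Gains of the double mutant were smaller. PRKCH (ENSG00000027075, chr14:61654277-62017694), protein kinase C eta, was at 5.52, 5.20 and 5.98 CPM there and at most 1.45 CPM in any other sample of set A. It differed between the control groups (log2 1.62 higher in control B, adjusted p = 0.0168). MYH7B (ENSG00000078814, chr20:33543613-33590240), a myosin heavy chain, was at 4.16, 4.28 and 5.14 CPM against at most 1.60 CPM. TRIML2 (ENSG00000179046, chr4:189012426-189030757) was at 4.95, 7.34 and 5.93 CPM against at most 2.97 CPM. DMKN, dermokine of the skin, and SPINT2, an inhibitor of serine proteases, were at 51.0 ± 1.70 and 51.4 ± 5.31 CPM in the double mutant and at 16.2 to 21.6 CPM on average in the other genotypes. In clone 1.14, in which SCC4 was not targeted, 7 of 59 synergistic genes tested were called in the direction of the double mutant (11.9%) and 21 in the opposite direction (35.6%).

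Of the 143 intermediate genes the double mutant was nearer to ΔWAPL at 97 and nearer to ΔSCC4 at 46. These counts include genes where it lay outside the range of both single mutants. In clone 1.14, 30 of 127 intermediate genes tested were called in the direction of the double mutant (23.6%) and 56 in the opposite direction (44.1%). Of all genes 8.59% were called higher there and 11.2% lower. KRT8 (ENSG00000170421, chr12:53290971-53343738), a keratin of simple epithelia, fell in both single mutants, to 3.69 ± 0.0786 and 2.66 ± 0.848 CPM from 8.15 ± 1.36, and was at 51.6, 44.6 and 49.0 CPM in the double mutant. STXBP2 (ENSG00000076944, chr19:7701658-7712759), a protein of vesicle fusion, fell from 3.1 ± 0.101 CPM to 1.64 ± 0.653 and 0.584 ± 0.269 and was at 11.2 ± 0.489 in the double mutant. CHL1 (ENSG00000134121, chr3:238446-451100), a neural adhesion molecule, and EYA1 (ENSG00000104313, chr8:72109668-72504260), a developmental coactivator, rose in both single mutants and fell below control in the double mutant. CHL1 averaged 30.3, 101, 59.1 and 13.1 CPM in control, ΔWAPL, ΔSCC4 and double mutant, and EYA1 was at 1.24 to 1.9 CPM in controls, and averaged 3.67, 3.5 and 0.597 CPM in the mutants. At these 4 genes the double mutant lay on the other side of control from both single mutants, with no overlap.

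MYOM1, a protein of the sarcomere, and GTSF1, a factor of the piRNA pathway, were lower in the double mutant than in ΔWAPL without overlap, although ΔSCC4 had raised them. MYOM1 averaged 97.9, 5.13, 194 and 1.5 CPM in control, ΔWAPL, ΔSCC4 and double mutant, and GTSF1 95.5, 12, 129 and 2.05 CPM. The immunoproteasome subunit PSMB8 averaged 13.8, 33.8, 4.55 and 48.7 CPM. CNTNAP2, a cell adhesion protein of neurons, averaged 5.10, 18.6, 3.57 and 52.5 CPM. At PSMB8 and CNTNAP2 the double mutant thus stood above ΔWAPL, and clone 1.14 lay below control B (log2 changes -1.84 and -2.97).

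Genes whose double mutant did follow the sum were held to their own limit. Of 2575 genes called in at least 1 single mutant the interaction was called at 1161. At 822 genes it was not called and its 95% interval lay within 2-fold on either side of 0, and these were named additive. At 592 genes neither held. The additive genes numbered 378 without control replicate 2 and 510 without ΔWAPL replicate 2. Of the 627 genes called in both single mutants 434 had an interaction, 100 were additive and 93 were neither, and of the 100 additive genes 41 had moved the same way in both. A further 292 interaction genes were called in neither single mutant.

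SYT1 (ENSG00000067715, chr12:79257773-79845788), a calcium sensor of synaptic vesicles, fell from 12.1, 16.8 and 17.5 CPM in controls to 2.25, 2.57 and 2.01 CPM in ΔWAPL and 4.27, 4.59 and 4.77 CPM in ΔSCC4, and to 0.797, 0.856 and 0.677 CPM in the double mutant. The 4 genotypes did not overlap, and the interaction was 0.23 (95% interval -0.41 to 0.87). GALNT5 (ENSG00000136542, chr2:158114217-158175003), which starts O-linked glycans, rose in both, from 1.23 ± 0.287 CPM to 5.67 ± 1.57 and 5.79 ± 1.55, and to 24.2 ± 5.36 in the double mutant (interval -0.96 to 0.70). NELL1 (ENSG00000165973, chr11:20691097-21597232), a secreted protein of bone, averaged 38.3, 13.5, 8.36 and 2.46 CPM (interval -0.72 to 0.21). AMBN (ENSG00000178522, chr4:71457973-71473005), the enamel protein ameloblastin, averaged 14.6, 0.424, 33.2 and 1.18 CPM, so that opposite changes added (interval -0.52 to 0.97). AMBN and NELL1 differed between the control groups, by 1.62 and -1.61 in control B relative to control A (adjusted p = 0.00183 for each). Their interactions rest on the controls of set A. The ΔWAPL change of AMBN was also seen in clone 1.14 (log2 change -7.37), and those of the others were not called there in the same direction: it was -0.12 at SYT1 (adjusted p = 0.618, edgeR), and opposite in sign at GALNT5 (-1.1, adjusted p = 0.0341) and NELL1 (0.28, adjusted p = 0.042).

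Lists of genes with a shared role were read against the 11.3% of all genes. Extracellular matrix genes had the largest share of the lists with 10 or more genes tested, 17 of 38 (44.7%), with 12 above 0 and 5 below. The list was also rich in single-mutant calls. Of the 38 genes 13 were called in ΔWAPL (10.6% of all genes were) and 19 in ΔSCC4 (14.4% of all genes). Laminin chains LAMB1 and LAMC1, the nidogen NID1, the thrombospondins THBS1 and THBS2, the collagens COL1A1, COL4A3, COL4A6 and COL9A3, the fibrillin FBN2, SPARC and the protease inhibitor TIMP3 were above 0. LAMA3, VCAN, MMP2, LOXL1 and LOXL2 were below. NID1 and LOXL1 were called in 7 of the 12 fits without 1 sample and LOXL2 in 10. LAMB1 was at 21.8, 26.8 and 33.1 CPM in ΔSCC4 and at 69.2 to 120 CPM in the other 9 samples (interaction 2.11, adjusted p = 2.1e-05, edgeR). THBS1 was at 0.303 ± 0.111 CPM in ΔSCC4 and 5.13 ± 1.01 in the double mutant. MMP2, a matrix protease, rose from 1.14 ± 0.483 CPM to 5.37 ± 0.73 and 7.73 ± 1.26 in the single mutants and was at 2.64 ± 0.393 in the double mutant.

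Of 31 neuronal adhesion molecules 12 had a called interaction (38.7%), while 17 were called in ΔWAPL and 17 in ΔSCC4. CADM1, NRXN3, CNTN1, CNTNAP2 and SLITRK2 were above 0, and NCAM2, CADM2, CHL1, NFASC, NLGN4X, FLRT2 and TENM1 below. CADM2 was at 8.54 to 11.1 CPM in ΔSCC4 and at 2.16 to 4.85 CPM in the others. NRXN3 rested on 1 to 5 reads in each genotype other than the double mutant, which had 48, and was called in 3 of 12 fits without 1 sample. Of 6 cadherins tested 4 were called, CDH3 and CDH6 above 0 and CDH2 and CDH9 below. Of 17 clustered protocadherins 5 were called, PCDHB2 and PCDHB8 above and PCDHA3, PCDHB3 and PCDHB5 below, and reads of these similar genes may be shared.

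Axon guidance genes had 18 of 50 called (36.0%), and 14 of these were below 0. Among the ephrin receptors EPHA3, EPHA5, EPHA6, EPHA8, EPHB1 and EPHB2 were below 0, and EPHA7 above. The semaphorins SEMA3A and SEMA3E, their receptors NRP1, NRP2 and PLXNA2, the netrins NTN1 and NTN4 and the netrin receptor UNC5A were also below. RELN, SEMA3D and the ligand EFNA5 were above. NTN1 was called in 2 of the 12 fits without 1 sample, NRP2 and EPHB2 in 3 and SEMA3D in 4. The other axon guidance genes named here were called in at least 10. NRP2 and EPHB1 were higher in control B than in control A (log2 1.42 and 1.17, adjusted p = 0.0129 and 0.0275, edgeR). SEMA3A was at 37.9 ± 1.32 CPM in ΔWAPL against 8.94 ± 2.19 in controls, 3.56 ± 0.202 in ΔSCC4 and 5.31 ± 0.314 in the double mutant. NRP1 averaged 49.6, 36.3, 85.9 and 30.3 CPM in control, ΔWAPL, ΔSCC4 and double mutant. The median interaction of the 50 genes was -0.27, against 0 over all genes. Of the 50 genes 15 were called in ΔWAPL and 22 in ΔSCC4, against 10.6% and 14.4% of all genes.

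Signalling lists were mixed in direction. Of 39 genes of TGF-β and BMP signalling 9 were called (23.1%), among them BMP7 and ACVR2A above 0 and TGFB3, ACVR1, ACVR1C, GDF3, SMAD7 and ID2 below. ID2, a target of BMP signalling that inhibits bHLH factors, was at 30.7 ± 0.707 CPM in ΔSCC4 and 15.1 ± 1.84 in the double mutant, against 13.2 ± 0.684 in controls. Of 40 WNT genes 7 were called (17.5%), WNT5A, FZD10, NKD1 and NOTUM above and WNT3, ROR1 and DKK3 below. Of 17 hematopoietic transcription factors 4 were called (23.5%), TAL1 and MYB above and IKZF1 and IKZF2 below. Of 35 interferon-stimulated genes 5 were called (14.3%), PSMB8 and IFITM1 above and IFIT1, DDX60 and TRIM22 below. HOX genes had 4 of 29 (13.8%), with HOXB9, HOXC11 and HOXD13 above and HOXA2 below. Some of these calls were lost when 1 sample was left out. HOXA2 was called in 3 of the 12 fits without 1 sample, ACVR2A in 4 and SMAD7, NKD1 and TRIM22 in 5. MYB was called in 6, IFIT1 in 8 and HOXC11 in 9.

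Of 23 genes of cholesterol synthesis and its control 5 were called (21.7%), all above 0, and none reached 2-fold in any mutant. HMGCS1, an early enzyme of the pathway, averaged 241, 182, 140 and 233 CPM in control, ΔWAPL, ΔSCC4 and double mutant. INSIG1, which retains the regulator SREBP, averaged 67.2, 66.7, 40.3 and 84.2 CPM. HSD17B7 and MSMO1, enzymes of the pathway, were also among them. MSMO1 was called in 4 of the 12 fits without 1 sample, and HMGCS1, INSIG1 and HSD17B7 in all 12. The same shape at small size was seen at 4 of 45 DNA replication genes (8.89%), CDC6, MCM6, GINS1 and PRIM1, a share below that of all genes. CDC6, a licensing factor, averaged 134, 122, 82.9 and 140 CPM. PRIM1 was called in 3 of the 12 fits without 1 sample, MCM6 in 11 and CDC6 and GINS1 in all 12. Of the 45 replication genes 13 were called in ΔSCC4 (14.4% of all genes were) and none in ΔWAPL (10.6%) or the double mutant (8.74%).

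The remaining lists held few called genes. Imprinted genes had 4 of 19 (21.1%), KCNQ1 and TFPI2 below 0 and MEST and DLK1 above, and germline genes 2 of 4, PRAME above and ACTL8 below. Glycolysis and hypoxia genes had 3 of 29 (10.3%): ALDOC and EGLN3 above, NDRG1 below. The stress response list had 2 of 30, ASNS among them below 0, the p53 target list BTG2 of 26, the condensin list NCAPD3 of 8 and the list of architectural factors LMNA of 11. LMNA was called in 4 of the 12 fits without 1 sample, ASNS in 5 and NDRG1 in 8. No called interaction was found among 75 cytoplasmic ribosomal proteins and 40 mitosis genes (edgeR). No list was tested as a list.

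**Figure D5:**
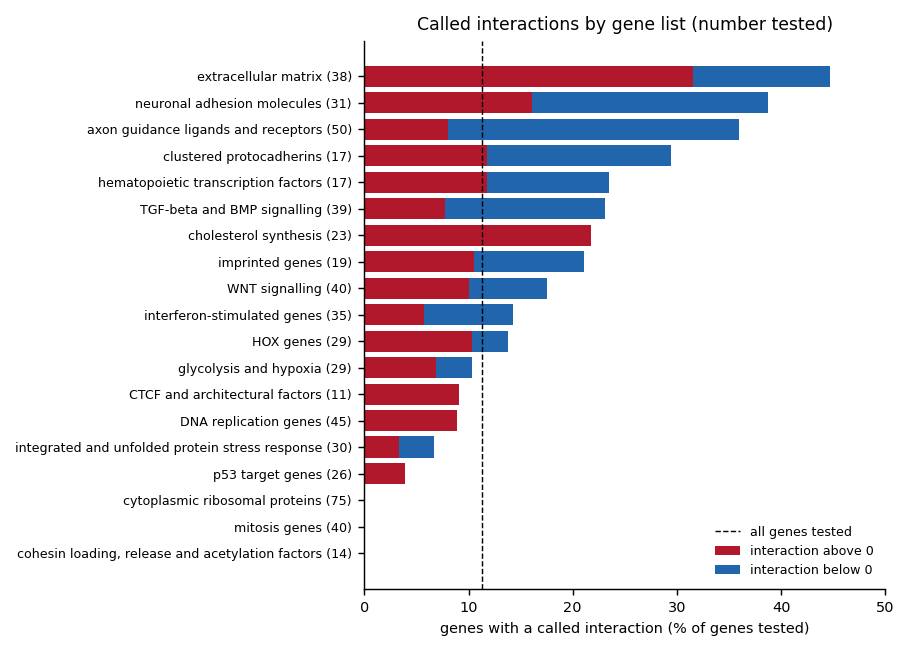
Percent of tested genes with a called interaction in each list with at least 10 genes tested, split into interactions above 0 (red) and below 0 (blue), with the number tested in brackets; the dashed line is all genes (11.3%). Matrix (44.7%), neuronal adhesion (38.7%) and axon guidance genes (36.0%) lie highest, and ribosomal and mitosis genes have none.

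Position on the chromosome had not been used to choose the genes. The next tested gene on the chromosome had a called interaction in the same direction at 161 of 1436 interaction genes (11.2%) and in the opposite direction at 53 (3.69%). Over all tested genes the next gene was called in either direction at 11.3%, a share that counts both directions together. By direction, 5.85% of all tested genes had a called interaction above 0 and 5.48% below 0. The share of neighbours in the same direction (11.2%) lay above these values, and that in the opposite direction (3.69%) lay below them. These differences were not tested. There were 21 runs of 3 or more neighbouring tested genes called in the same direction, with 67 genes in all and at most 4 in a run.

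A run on chromosome 1 held CHRM3, a muscarinic acetylcholine receptor, and FMN2, a formin that nucleates actin. FMN2 was at 0.582, 0.698 and 0.83 CPM in ΔSCC4 and at 5.04 CPM or more in each other sample of set A. CHRM3 had moved in opposite ways: it rose to 11.2, 12.2 and 9 CPM in ΔWAPL and had 1 read over the 3 ΔSCC4 samples. It was at 1.88, 2.08 and 1.75 CPM in the double mutant and 1.83, 2.64 and 3.57 CPM in controls. At both genes the double mutant overlapped the controls, and ΔSCC4 lay below all other genotypes. Clone 1.14 was not low at these genes, with CHRM3 at 16.5 CPM on average against 3.15 CPM in control B and FMN2 at 14.7 against 11.1 CPM.

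Other runs had other patterns. ZNF606, ZSCAN18 and ZNF329 at chr19:58488444-58666477, all zinc finger genes, averaged 1.37, 0.762 and 0.374 CPM in the double mutant and 4.16, 3.56 and 7.44 CPM in controls, and ΔSCC4 was higher than control at ZSCAN18 and ZNF329. In ΔWAPL they averaged 7.72, 2.9 and 1.1 CPM, so that ZNF329 was already low there. EDIL3 in the run with XRCC4 and VCAN at chr5:82373317-83680698 had no read in the double mutant and 25, 44 and 37 reads in control, ΔWAPL and ΔSCC4. It was also low in ΔWAPL clone 1.14, with 3 reads against 65 in control B (log2 change -4.41, adjusted p = 0.000725, edgeR). EPHA3 stood in a run with ZNF654 and C3orf38, and NCAM2 in a run with CHODL and C21orf91. At TDGF1, ALS2CL and PTH1R (chr3:46616024-46945289) ΔSCC4 was lower than the other genotypes, with PTH1R, the parathyroid hormone receptor, at 1.74 ± 0.227 CPM there and 6.80 ± 0.178 in the double mutant. The double mutant was not called against control at any of these 3 genes.

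Promoters were read from GRCh37 as the 300 bases before the start of the canonical transcript, for 98.4% of the tested genes. The CpG ratio (CG pairs relative to what the C and G content would give) had a median of 0.826 over all tested genes (quartiles 0.695 and 0.937) and of 0.761 over interaction genes. The 50 genes with a promoter that were lower in both single mutants and suppressed in the double mutant had a median of 0.320 (quartiles 0.185 and 0.657). Genes lower in ΔSCC4 alone had 0.666, genes lower in ΔWAPL alone 0.615, saturated lower genes 0.770 and synergistic genes 0.640. Genes that were higher in both single mutants had 0.714. The median GC content of the promoters of genes lower in both single mutants was also lower, 60.2% against 65.3% over all tested genes, and the part of base composition in the CpG ratio was not tested.

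These promoters show the range, chosen after their values were seen. They are printed from 5′ to 3′ on the strand of the gene, with each CG pair in capitals. HCLS1 (chr3:121379751-121380050, minus strand, 2 CG pairs) and SPARC (chr5:151066477-151066776, minus strand, 8 CG pairs) were lower in both single mutants. S100A6 (chr1:153508468-153508767, minus strand, 27 CG pairs) was lower in ΔSCC4 alone, and PCDH9 (chr13:67804469-67804768, minus strand, 26 CG pairs) higher in both.
HCLS1 promoter: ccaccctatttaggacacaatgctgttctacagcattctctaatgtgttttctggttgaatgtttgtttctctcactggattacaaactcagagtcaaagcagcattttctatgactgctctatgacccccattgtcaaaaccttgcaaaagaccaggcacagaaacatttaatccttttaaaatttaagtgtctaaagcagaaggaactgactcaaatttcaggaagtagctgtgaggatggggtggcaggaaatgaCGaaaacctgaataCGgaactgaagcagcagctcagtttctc
SPARC promoter: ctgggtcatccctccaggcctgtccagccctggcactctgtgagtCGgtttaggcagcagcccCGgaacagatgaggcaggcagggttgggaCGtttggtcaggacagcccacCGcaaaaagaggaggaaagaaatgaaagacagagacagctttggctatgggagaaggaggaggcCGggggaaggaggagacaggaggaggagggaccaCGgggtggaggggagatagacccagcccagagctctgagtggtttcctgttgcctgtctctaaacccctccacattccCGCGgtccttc
S100A6 promoter: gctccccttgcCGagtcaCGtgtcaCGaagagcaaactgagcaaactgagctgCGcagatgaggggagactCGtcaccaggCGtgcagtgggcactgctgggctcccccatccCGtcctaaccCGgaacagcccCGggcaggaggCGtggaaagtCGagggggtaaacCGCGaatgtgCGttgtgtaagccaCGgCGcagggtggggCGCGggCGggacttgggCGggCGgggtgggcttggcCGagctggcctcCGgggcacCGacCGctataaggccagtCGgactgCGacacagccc
PCDH9 promoter: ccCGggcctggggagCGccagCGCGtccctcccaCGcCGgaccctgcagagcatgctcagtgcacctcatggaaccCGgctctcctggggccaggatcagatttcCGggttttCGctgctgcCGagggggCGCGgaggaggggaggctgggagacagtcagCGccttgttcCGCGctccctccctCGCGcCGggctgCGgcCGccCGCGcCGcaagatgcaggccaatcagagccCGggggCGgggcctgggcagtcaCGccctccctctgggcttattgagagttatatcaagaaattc
The double mutant held HCLS1 at 9.24 CPM, SPARC at 26.4 CPM, S100A6 at 33.2 CPM and PCDH9 at 12.2 CPM, so that genes with few and with many CG pairs were both among the suppressed genes.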

How the data were processed

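RNA was measured by strand-specific poly(A) RNA-seq of HAP1 cells, with 3 samples in each genotype. The deposited values are raw read counts per gene, which the authors made by aligning reads with TopHat2 (version 2.0.9 in the submitters' processing notes, build hg19) and counting with HTSeq. The version differs between those notes and the study's methods, and the annotation is not given in the sources used here. Rows that name no gene held 20.9% to 22.6% of the counts of the 12 samples and were left out.

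Counts were filtered by edgeR's filterByExpr, normalised by TMM and tested with edgeR 4.0.16 (quasi-likelihood test, Benjamini-Hochberg adjusted p under 0.05) in 1 fit over the 12 samples, with the interaction as a contrast over the 4 genotypes. Positions and guides were read from GRCh37 (96.6% of gene identifiers found). The scripts were tested on simulated data.

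Genes named by rule are, first, the 3 and 3 (intermediate: 2 and 2) with the highest and lowest interactions of each class, among those that reached a mean log2 CPM of 1 and kept their call and direction in each of the 12 fits without 1 sample. The 4 additive genes with the largest summed changes (mean log2 CPM of 1 or more) and WAPL, MAU2, NIPBL and NCAM2 were added without that last condition. List genes are named where the interaction was called, also where fits without 1 sample lost the call, as at HOXA2 and PCDHB8 (called in 3 of 12). The other genes were chosen after their values were seen. The classes and lists were chosen with earlier results of these data known. Replicate pairs of a genotype differed beyond sampling noise (chi-square per degree of freedom 5.08 to 51.99). Whether samples came from separate cultures is not given, so p-values measure the spread between samples of 1 line. Alternatives were DESeq2 1.42.0, limma 3.58.1, other filters and scaling, all 18 samples, both control sets, GC offsets, a replicate block and leaving out each sample. Some genes are not reported here.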

Additional observations from a re-analysis of the deposited data

Results flagged for a closer look

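The effect of SCC4 loss differed between cells with and without WAPL at 1453 genes by the test of that difference itself (edgeR's interaction, adjusted p under 0.05). Among the genes named by rule the difference was above 0 at MYH7B (2.93), TRIML2 (2.19), PRKCH (2.12), NLRP2 (12.93), MT1M (9.77), GABRA5 (9.45), TCEAL9 (6.61), RELN (6.06), MYO5C (5.33), KRT8 (5.31) and STXBP2 (5.22). It was below 0 at TFPI2 (-12.45), EPHA6 (-5.34), CROT (-5.26), TLL1 (-5.8), EPHA5 (-5.4), KIF26B (-4.75), HBB (-7.97), NLGN4X (-4.94), TAFA5 (-4.06), CHL1 (-3.91), EYA1 (-3.73) and NCAM2 (-2.88). The fitted values of NLRP2, MT1M, TFPI2 and HBB depend on the prior count, since 1 genotype had no read. With 3 reads over that genotype they are at least 10.02, at least 6.54, at most -9.58 and at most -4.99. GABRA5 and TCEAL9 had 1 and 2 reads in ΔSCC4. Reads of MT1M and HBB may be shared with genes of like sequence.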

How the results depend on the processing

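The 1453 interaction genes became 1567 with DESeq2 (1386 of them shared) and 1539 with limma. They numbered 3219 with GC offsets and 2871 with a replicate block and GC offsets. Leaving out 1 sample gave 1114 to 1747. With at least 10 counts in every sample there were 31 synergistic, 230 suppressed and 65 saturated genes in place of 65, 397 and 112. Genes tested fell to 11698 from 12817, and genes at which no mutant reached 2-fold to 639 from 736. This filter leaves out genes with a genotype near 0 reads, such as S100A6, GABRA5 and TFPI2. Leaving out 1 sample gave 51 to 64 synergistic, 367 to 449 suppressed and 102 to 127 saturated genes. With a size limit of 1.5-fold or 3-fold there were 638 or 237 suppressed genes. The 822 additive genes became 1323 in 1 fit over 18 samples, 1647 with 6 controls, 1713 with GC offsets, 1559 with the block and GC offsets, and 189 when the interval had to lie within 1.5-fold. They ranged from 378 (without control replicate 2) to 908, with 510 without ΔWAPL replicate 2. The cause of these moves of additive genes was not tested. Of 639 values of named genes under alternatives, 633 kept direction and call and 6, all of NCAM2, lost the call. The genes named for a class had been chosen for keeping direction and call in the 12 fits without 1 sample. Their values in those fits were thus fixed in advance and do not measure stability.

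Same-numbered deviations correlated in every pair between control and ΔSCC4 (mean 0.638, lowest 0.258), but not between the other genotypes (means -0.456 to 0.029), so the numbers were not taken to pair all 4. A fit with the replicate block called 1287 interaction genes, 58 synergistic, 380 suppressed, 111 saturated and 636 additive. Depth limits what can be seen at genes with few reads, where a genotype at 0 gives only a bound.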
